A study of Homo sapiens with 6 samples.

Results

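The kinesin motor genes of the human genome were followed in an ovarian cancer cell line, OVCAR3, with and without a DAB2IP expression vector. Members were the protein-coding genes whose symbol is KIF or KIFC followed by a number, with or without a family letter. This rule found 41 kinesins among the 27104 genes of the deposited tables, and it used no measured value. By what their proteins are known to do, 13 were placed with the mitotic kinesins, 15 with the transport kinesins that carry cargo along microtubules, and 13 with a remaining group of ciliary, microtubule-end and other kinesins. KIF2B, which belongs with the mitotic motors, was not analysed here. CENPE and STARD9 are kinesins whose symbols fall outside the rule, and their values are given beside the members.

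Kinesins are motor proteins that use ATP to step along microtubules or to take apart microtubule ends. In dividing cells a dedicated group of them separates the spindle poles, moves and aligns chromosomes, and builds the midzone and midbody at which the daughter cells part. Most of these mitotic motors are made mainly as cells approach division. The transport motors work in cells at every stage, where most of them carry vesicles, mitochondria, lysosomes and mRNA outwards from the cell centre.

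All 6 libraries were of OVCAR3 cells at passages 20 to 25, and 3 libraries came from cells transfected with an empty vector while 3 came from cells transfected with a vector labelled DAB2IP O/E. The gene DAB2IP encodes a scaffold protein that switches off Ras. The labels used here name neither the promoter of the vectors nor whether transfection was stable, and no allele or further agent. They give transfection in triplicate, with no word on how far the cultures were separate, and p-values here can speak only of the scatter among 6 libraries, part of which may be technical. Poly-A RNA was sequenced, and gene levels were deposited as FPKM, fragment counts scaled to transcript length and library depth.

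The targeted gene went against the label. DAB2IP stood at 7.49, 7.76 and 8.01 FPKM with the empty vector and at 5.74, 5.02 and 5.73 FPKM in libraries labelled DAB2IP O/E. The groups did not overlap, and the log2 change was -0.43 (SE 0.062, n = 3 per group, limma adjusted p = 0.00548). Every direction below is therefore that of the libraries labelled DAB2IP O/E relative to the empty vector libraries. Whether the labels were exchanged, or whether transcripts of the vector entered the DAB2IP value, was not tested. An exchange would turn every rise and fall given here. The depth, recovered as whole reads from the deposited values, ran from 20445867 to 35434533 reads per library. One label of the extraction names adipocytes. Of 9 adipocyte markers 5 were listed, none of these reached a mean of 1 FPKM, and their summed level was 0.58 to 0.79 FPKM in the 6 libraries. All 9 markers of ovarian cancer cells were above that mean, and their summed level was 844 to 900 FPKM with the empty vector and 1117 to 1175 FPKM with the other vector. Its members went both ways: KRT7, KRT8 and KRT18 rose, while WT1 and FOLR1 fell (log2 changes -0.45 and -0.40, adjusted p = 0.00295 and 0.0466).

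Most mitotic kinesins that could be tested fell, while transport kinesins went both ways or did not pass. Among the 12 mitotic kinesins that reached a mean of 1 FPKM, 8 fell, 0 rose and 4 did not pass the test, against a background of 9.17% of 14761 genes that fell. Among 12 transport kinesins above the same mean, 1 fell, 3 rose and 8 did not pass, where 9.29% of all genes tested rose. Of the 7 remaining kinesins above it, 0 passed in limma in either direction, and 1 was lower in limma-voom on the recovered reads. At an unadjusted p under 0.05, 2 of them (KIF2A and KIF7) were lower, with no share over all genes given at that threshold. Over all kinesins, 31 were tested, of which 9 fell and 3 rose, and 18.5% of all genes were called in either direction. A gene was called at a Benjamini-Hochberg adjusted p under 0.05 in limma, fitted to log2(FPKM + 1) over the 14761 genes that reached a mean of 1 FPKM. Changes are given on that scale, which understates the change of genes with low levels. Genes with higher levels were called more often. With a filter at 5 FPKM, all 12 mitotic kinesins stayed and 8 fell, beside 13.2% of 8117 genes. Of the 8 transport kinesins that stayed, 1 fell and 2 rose, beside 11.7% of genes that rose.

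The median log2 change was -0.26 over the 12 mitotic kinesins tested, -0.01 over the 12 transport kinesins and -0.04 over the 7 others, beside -0.0004 over all genes tested. All 12 mitotic values were below 0, from -0.43 to -0.07, as were 50.1% of all genes tested. Transport values ran from -0.27 to 0.36, with 6 below 0 and 6 above. The median coefficient of variation of a mitotic kinesin was 5.66% among the empty vector libraries and 4.22% among those labelled DAB2IP O/E, and the transport kinesins gave 5.64% and 4.82%. In these bulk libraries, fewer cells in division and less of each transcript per cell cannot be told apart.

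**Figure D1:**
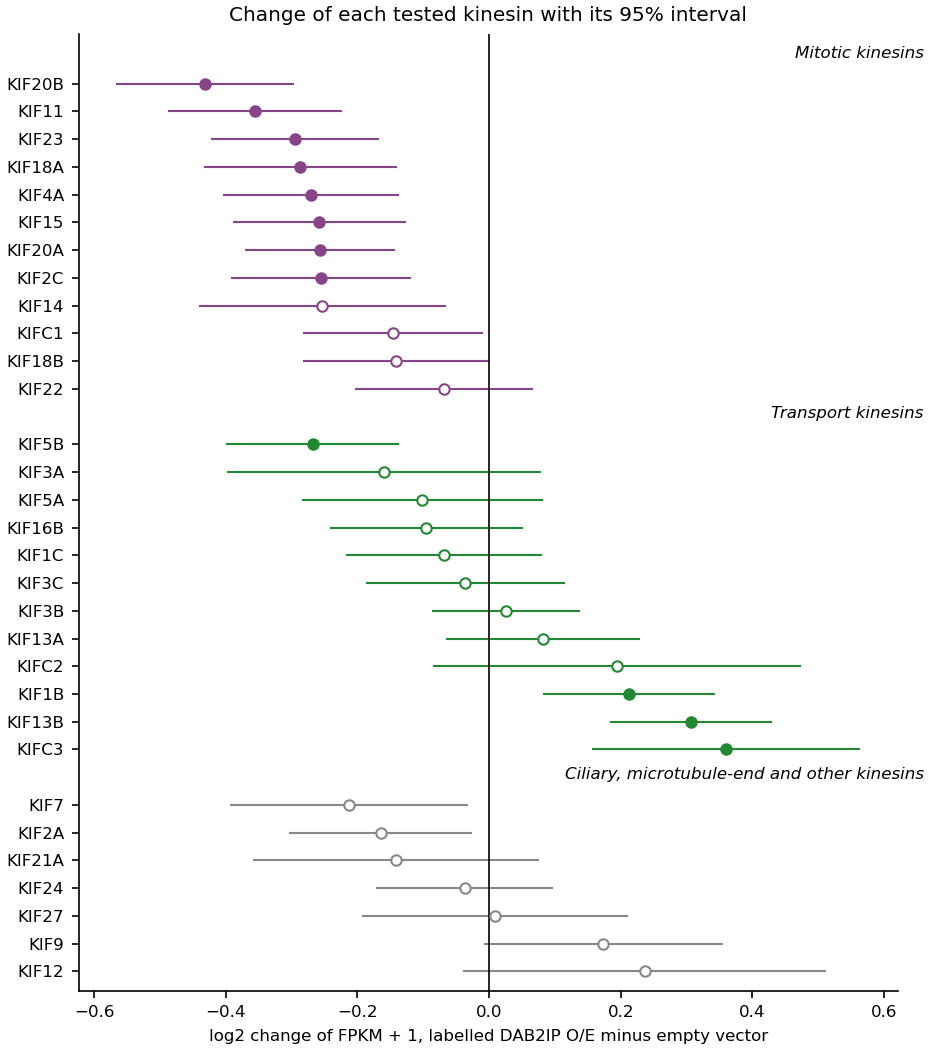
Log2 change of each tested kinesin, in libraries labelled DAB2IP O/E relative to empty vector, on the log2(FPKM + 1) scale with 95% confidence intervals and the call of each gene marked. All 12 mitotic kinesins lie left of 0, and the 3 kinesins that rose are transport kinesins.

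Summed FPKM showed the same contrast in every library. The mitotic kinesins added up to 265.7, 249.8 and 243.1 FPKM with the empty vector and to 209.5, 206.2 and 207.5 FPKM in those labelled DAB2IP O/E. The means were 252.9 ± 11.6 and 207.7 ± 1.66 FPKM (SD, n = 3 each), so the second was 82.2% of the first. The transport kinesins added up to 155.6, 147.5 and 144.1 FPKM against 144.9, 144.3 and 140.7 FPKM, or 96.1%, and here the groups overlapped. The mitotic share of all kinesin FPKM was 57.4%, 57.1% and 57.2% with the empty vector and 53.6%, 53.2% and 53.9% without overlap in the others. The ratio of mitotic to transport FPKM went from 1.70 ± 0.011 to 1.45 ± 0.023 (SD, n = 3 each). With 3 libraries against 3, an exact permutation test cannot go below p = 0.1, so these sums are given as values and spread only.

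**Figure D2:**
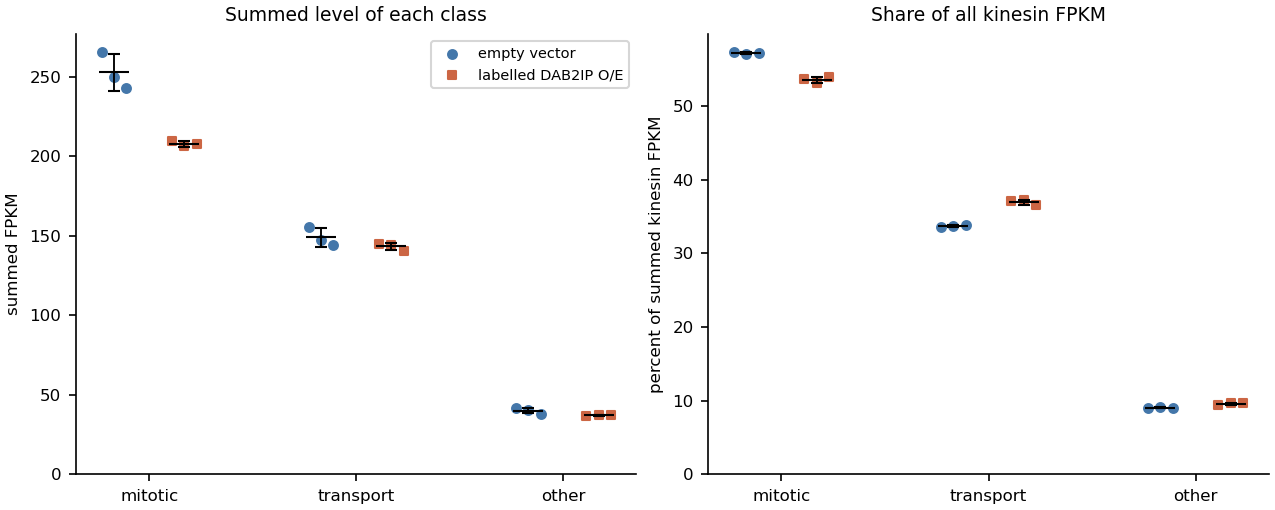
Summed FPKM of the mitotic, transport and remaining kinesins in each library, with group means and SD (n = 3 per group). The mitotic sums of the libraries labelled DAB2IP O/E, 206.2 to 209.5 FPKM, lie below all 3 empty vector sums, while the transport sums overlap.

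The stretch around the transcription start was searched for short motifs in each class. Many genes of late cell cycle carry a cell cycle genes homology region there, read by the DREAM and MuvB complexes, often a short way from CCAAT boxes bound by NF-Y. RefSeq promoters in GRCh38.p14, from 250 bases before to 50 bases after the start, were matched within 1000 bases of the deposited gene start for 31 of the 41 kinesins, and 33 had an entry at any start. KIFC2, KIF27, KIFC3, KIF26B, KIF21B, KIF19, KIF13B and KIF5A had no entry. The letters TTTGAA and CCAAT were searched on both strands, where the reverse reads TTCAAA and ATTGG, and a match counted whether or not it overlapped another.

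TTTGAA stood in 10 of 13 mitotic promoters, 76.9%, in 1 of 11 transport promoters, 9.09%, and in 0 of 7 others. Among 7616 promoters of tested protein-coding genes it stood in 709, or 9.31%. CCAAT was found in 11 of the 13 mitotic promoters (84.6%) and in 3 of 11 transport promoters (27.3%), with 37.3% among all. Both motifs together were in 9 mitotic promoters (69.2%), while 4.16% of all promoters held both. GGGCGG, the box bound by Sp1, stood in 92.3% of mitotic and 100% of transport promoters against 73.2% of all. Within the mitotic class, TTTGAA was in 6 of the 8 promoters of genes that fell and in 3 of the 4 that did not pass. The 13 mitotic promoters include that of KIF4B, a copy of KIF4A that was not tested. Both promoters hold TTTGAA and CCAAT at the same spacing, so they may not count as separate cases. These matches describe letters and not sites of binding.

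The 150 bases before the start are shown for 5 mitotic kinesins that fell and hold TTTGAA within them, with the letters of TTTGAA and CCAAT matches on either strand in capitals.
KIF11, chr10:92592980-92593129, plus strand: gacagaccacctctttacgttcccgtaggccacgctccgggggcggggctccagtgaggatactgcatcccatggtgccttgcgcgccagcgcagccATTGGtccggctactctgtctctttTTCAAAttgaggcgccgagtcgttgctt
KIF23, chr15:69414199-69414348, plus strand: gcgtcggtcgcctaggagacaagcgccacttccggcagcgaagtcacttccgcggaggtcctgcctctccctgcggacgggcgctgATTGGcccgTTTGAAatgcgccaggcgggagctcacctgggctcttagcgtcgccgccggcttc
KIF4A, chrX:70289954-70290103, plus strand: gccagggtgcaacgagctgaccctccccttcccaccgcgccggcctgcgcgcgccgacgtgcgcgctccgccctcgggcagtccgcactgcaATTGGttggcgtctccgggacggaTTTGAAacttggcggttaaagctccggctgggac
KIF15, chr3:44761644-44761793, plus strand: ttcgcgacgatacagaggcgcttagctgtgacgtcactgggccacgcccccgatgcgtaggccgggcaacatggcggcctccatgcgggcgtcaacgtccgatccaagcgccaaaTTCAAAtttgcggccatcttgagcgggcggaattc
KIF18A, chr11:28108157-28108306, minus strand: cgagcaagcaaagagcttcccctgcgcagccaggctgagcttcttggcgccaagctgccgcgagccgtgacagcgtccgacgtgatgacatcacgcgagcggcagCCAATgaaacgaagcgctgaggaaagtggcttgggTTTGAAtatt
In KIF11 the TTTGAA match began 28 bases before the start, in KIF23 55, in KIF4A 34, in KIF15 35 and in KIF18A 10. A CCAAT match lay further upstream in all of these but KIF15, at 53, 64, 58 and 45 bases before the start in KIF11, KIF23, KIF4A and KIF18A. KIF20B, KIFC1, KIF18B, KIF14 and KIF4B held TTTGAA after the start, KIF20A and KIF22 held CCAAT without it, and KIF2C held neither.

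KIF11 had the highest level of the mitotic kinesins, and it fell. Known as Eg5, it is the motor that pushes the spindle poles apart and the target of a class of antimitotic compounds. KIF11 is identified as ENSG00000138160.5 and lies at chr10:92593286-92655395 in GRCh38. It stood at 48.3, 47.1 and 43.5 FPKM with the empty vector and at 34.3, 37.3 and 36.3 FPKM in those labelled DAB2IP O/E. Every library of the second group was below every library of the first. The means were 46.3 ± 2.5 and 36.0 ± 1.5 FPKM (SD, n = 3 each), and the log2 change was -0.36 (SE 0.056, adjusted p = 0.00755). KIF15, which can take over from KIF11 in holding the poles apart, fell as well. It measured 9.31, 8.37 and 8.36 FPKM against 7.25, 6.96 and 7.06 FPKM, again without overlap, and its log2 change was -0.26 (SE 0.056, adjusted p = 0.0215). KIFC1, the minus-end motor that clusters extra centrosomes, gave 17.1, 17.6 and 16.4 FPKM against 16.5, 14.9 and 14.6 FPKM. Its groups overlapped and it did not pass, with a log2 change of -0.15 and an adjusted p of 0.122. Exon bases of RPL12P1, on the other strand, cover 12.7% of those of KIFC1, and whether reads were counted by strand is not given in the sources used here.

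The cytokinesis kinesins of the midzone and midbody held the member with the lowest adjusted p of all kinesins. KIF20B, also called MPP1 and needed for the last cut between daughter cells, is ENSG00000138182.14 at chr10:89701610-89774939. It measured 24.0, 22.4 and 21.1 FPKM with the empty vector and 15.8, 16.6 and 16.9 FPKM with the vector labelled DAB2IP O/E. The second mean, 16.4 ± 0.59 FPKM, was 72.9% of the first, 22.5 ± 1.4 FPKM (SD, n = 3 each), and the log2 change was -0.43 (SE 0.058, adjusted p = 0.00443). Its relative KIF20A, which brings the chromosomal passenger complex to the midzone, fell too. It measured 32.6, 30.2 and 31.0 FPKM against 27.0, 25.4 and 25.5 FPKM, and its log2 change was -0.26 (SE 0.049, adjusted p = 0.0141). KIF23, or MKLP1, forms the centralspindlin complex with RACGAP1. It measured 24.6, 23.4 and 21.8 FPKM against 18.4, 18.7 and 19.1 FPKM with a log2 change of -0.29 (SE 0.054, adjusted p = 0.0129). None of these 3 genes overlapped between the groups. KIF14, which works with citron kinase at the midbody, measured 10.3, 8.96 and 8.19 FPKM against 7.50, 7.79 and 7.17 FPKM. KIF14 was separated between the groups but did not pass, at a log2 change of -0.25 and an adjusted p of 0.0666. It passed in limma-voom on the recovered reads (adjusted p = 0.0208) and in the authors' deposited table (adjusted p = 0.0069).

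The chromosome motors were split. KIF4A, a chromosome-bound motor that also sets the length of midzone microtubules, measured 23.2, 21.1 and 20.2 FPKM against 17.8, 17.4 and 17.7 FPKM, and its log2 change was -0.27 (SE 0.057, adjusted p = 0.0199). KIF18A, which damps the movement of aligned chromosomes, measured 11.4, 11.1 and 11.6 FPKM against 8.45, 9.94 and 9.06 FPKM with a log2 change of -0.29 (SE 0.062, adjusted p = 0.0218). KIF2C, known as MCAK, removes tubulin at wrongly attached kinetochores. It measured 38.3, 34.4 and 34.8 FPKM against 31.0, 28.4 and 30.1 FPKM, and its log2 change was -0.26 (SE 0.058, adjusted p = 0.0251). All 3 fell, with every library labelled DAB2IP O/E below every empty vector library. KIF22, or Kid, which pushes chromosome arms outwards, did not follow them. It measured 15.2, 14.3 and 15.3 FPKM against 14.9, 13.2 and 14.6 FPKM, with a log2 change of -0.07 (95% CI -0.20 to 0.07, adjusted p = 0.441). That interval holds the changes of KIFC1 and KIF18B, so KIF22 is not shown to have stayed level. AC009133.4 covers 13.01% of the exon bases of KIF22. KIF18B, a motor of growing microtubule ends, measured 11.2, 10.6 and 10.5 FPKM against 10.5, 9.29 and 9.24 FPKM, just without overlap, and did not pass at a log2 change of -0.14 and an adjusted p of 0.143.

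KIF4B, an intronless copy of KIF4A, was listed at 0.222 to 0.348 FPKM from 26 to 44 reads per library, below the level tested. Its reads can be shared with KIF4A, so its value is uncertain. CENPE, the kinetochore motor that hauls chromosomes to the spindle equator, is outside the name rule. It measured 19.7, 16.9 and 14.9 FPKM with the empty vector and 12.3, 11.3 and 11.97 FPKM in the others. Its log2 change was -0.49 (SE 0.094, adjusted p = 0.0147), and it did not pass without replicate 3 of the group labelled DAB2IP O/E (adjusted p = 0.0544). STARD9, a motor of the material around the centrosome, was at 0.0786 to 0.155 FPKM and was not tested.

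Of the 12 mitotic kinesins tested, 10 had groups that did not overlap, all with the libraries labelled DAB2IP O/E lower, and 20.9% of all genes tested were separated that way. Over all kinesins 14 were separated lower and 4 higher, where 19.5% of all genes were separated higher and 40.4% in either direction. How many passed depended on single libraries, and so did the number over all genes. Leaving out 1 library at a time gave 3 to 9 mitotic kinesins called lower, and 3.04% to 8.85% of all genes. The count was 4 without replicate 1 of the group labelled DAB2IP O/E, 5 without its replicate 2, 3 without its replicate 3, and 3 without empty vector replicate 2. All 12 log2 changes stayed below 0 in each of these 6 fits. KIF20B and KIF11 passed in all 6, KIF20A in all except the fit without replicate 3 of the group labelled DAB2IP O/E, and KIF23 in all except that without empty vector replicate 2. KIF2C, KIF4A and KIF15 each lost the call in the same 4 of the 6 fits just listed, and KIF18A in 3 of them. In the authors' deposited table, 9 mitotic kinesins were lower, 0 higher and 4 did not pass, where 9.26% of 20272 genes with an adjusted p-value were lower and 9.73% higher. In limma-voom on the recovered reads, 9 of 13 mitotic kinesins were lower and 3 of 15 transport kinesins higher, where 9.64% of 19303 genes were lower and 12.8% higher.

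**Figure D3:**
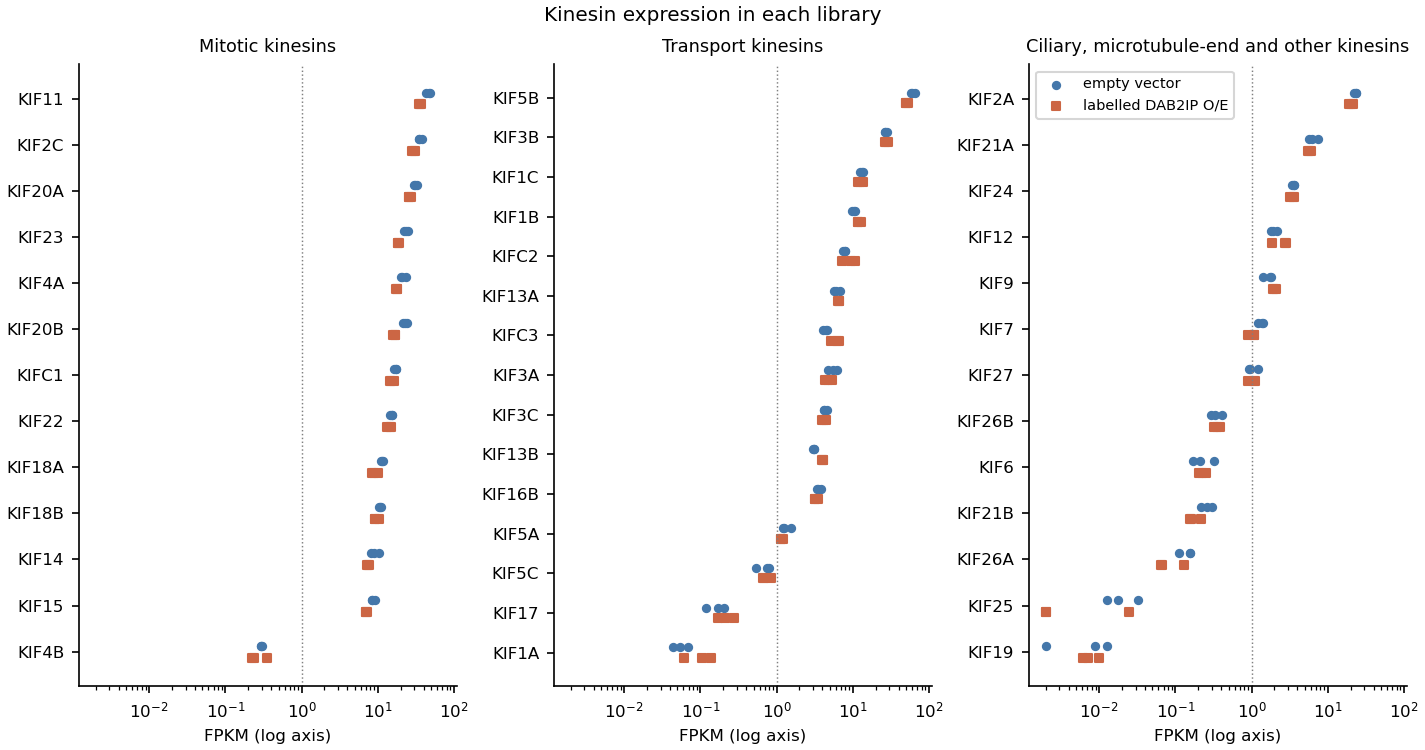
FPKM of all 41 kinesins in each of the 6 libraries, on a log axis, with 1 point per library and the vertical line at 1 FPKM; a value listed at 0 is drawn at the left edge, which applies to KIF25 in 2 libraries and KIF19 in 1. Of the mitotic kinesins, KIF4B alone lies left of the line, while the transport and remaining kinesins spread over both sides.

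Among the transport kinesins, KIF5B had the highest level of all kinesins and was the member that fell. KIF5B is the heavy chain of the widely expressed kinesin-1, which moves mitochondria, lysosomes and many vesicles, and is ENSG00000170759.10 at chr10:32009010-32056431. It measured 65.0, 60.6 and 58.4 FPKM with the empty vector and 49.4, 53.1 and 49.6 FPKM with that labelled DAB2IP O/E. The groups did not overlap, with means of 61.3 ± 3.4 and 50.7 ± 2.1 FPKM (SD, n = 3 each) and a log2 change of -0.27 (SE 0.056, adjusted p = 0.0194). The call was lost in 3 of the 6 fits that left out 1 library, those without replicate 1 or 3 of the group labelled DAB2IP O/E or empty vector replicate 2, with an adjusted p of up to 0.0824. KIF5B made up 41.1% ± 0.64 of transport kinesin FPKM with the empty vector and 35.4% ± 1.4 in the others. Without KIF5B, the transport sums were 90.6, 86.9 and 85.8 FPKM against 95.5, 91.1 and 91.1 FPKM, so the second group lay narrowly above the first. KIF5B was left out as the member that fell, so this upward shift is in part set by that choice. The neuronal heavy chains were low. KIF5A measured 1.54, 1.21 and 1.26 FPKM against 1.20, 1.16 and 1.16 FPKM, without overlap, and did not pass (log2 change -0.10, adjusted p = 0.396). KIF5C, at 0.799, 0.757 and 0.532 FPKM against 0.842, 0.691 and 0.668 FPKM, was below the level tested.

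The promoter of KIF5B was the one transport promoter with TTTGAA, which began 140 bases before its start and so further upstream than in the mitotic kinesins shown. It is set beside that of KIF3B, whose level did not pass the test, and KIF1B, which rose. Capitals again mark TTTGAA and CCAAT on either strand.
KIF5B, chr10:32056426-32056575, minus strand: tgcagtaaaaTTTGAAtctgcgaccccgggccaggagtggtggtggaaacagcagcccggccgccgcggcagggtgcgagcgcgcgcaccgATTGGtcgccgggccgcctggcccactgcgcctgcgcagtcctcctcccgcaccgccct
KIF3B, chr20:32277501-32277650, plus strand: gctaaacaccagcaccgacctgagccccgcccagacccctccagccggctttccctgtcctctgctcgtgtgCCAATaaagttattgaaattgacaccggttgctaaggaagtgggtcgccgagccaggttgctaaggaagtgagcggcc
KIF1B, chr1:10210556-10210705, plus strand: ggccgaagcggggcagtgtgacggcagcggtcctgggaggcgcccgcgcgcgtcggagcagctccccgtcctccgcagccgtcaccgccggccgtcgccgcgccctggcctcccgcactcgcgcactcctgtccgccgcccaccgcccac
KIF3B holds CCAAT without TTTGAA in these letters, and KIF1B holds neither.

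The 3 kinesins that rose are cargo motors of other families. KIF13B, which carries phosphoinositide-rich vesicles and receptors, is ENSG00000197892.12 on chromosome 8. It measured 3.14, 3.13 and 2.97 FPKM with the empty vector and 3.94, 4.12 and 4.07 FPKM in the second group, all of them higher. The second mean was 131% of the first, and the log2 change was 0.31 (SE 0.053, adjusted p = 0.0101). KIFC3, a minus-end motor of epithelial junctions and apical transport, is ENSG00000140859.15 at chr16:57758217-57863053. It measured 4.48, 4.10 and 4.64 FPKM against 6.57, 5.14 and 6.17 FPKM, and its log2 change was 0.36 (SE 0.087, adjusted p = 0.0304). KIF1B, a carrier of mitochondria and synaptic vesicle precursors, is ENSG00000054523.17 at chr1:10210805-10381603. It measured 10.7, 10.3 and 9.85 FPKM against 11.6, 12.8 and 11.9 FPKM, with a log2 change of 0.21 (SE 0.056, adjusted p = 0.0388). No group of these 3 genes overlapped the other.

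KIF13B kept its call in 5 of the 6 fits without 1 library and missed it without replicate 3 of the group labelled DAB2IP O/E, at an adjusted p of 0.0538. KIFC3 lost it in 4 of the 6, those without replicate 1 or 3 of that group or without empty vector replicate 1 or 2, and with no filter on low values, with an adjusted p of up to 0.108. KIF1B passed in 1 of the 6, that without empty vector replicate 1, and reached an adjusted p of 0.110 in the rest. It also missed the threshold with equal library medians (adjusted p = 0.0641) and with no filter on low values (adjusted p = 0.0578). The log2 change of each of these 3 genes stayed above 0 in every one of these fits. All 3 were higher in the authors' deposited table too, with adjusted p-values of 8.35e-06, 6.25e-05 and 0.00265.

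The remaining transport kinesins did not pass. KIF3B, the motor subunit that pairs with KIF3A in kinesin-2, measured 26.9, 26.7 and 27.95 FPKM against 27.4, 28.9 and 26.7 FPKM, with a log2 change of 0.03 (95% CI -0.09 to 0.14, adjusted p = 0.735). This sign turned with equal library medians, to -0.0035. Its partner KIF3A measured 6.24, 5.59 and 4.66 FPKM against 4.78, 5.27 and 4.34 FPKM (log2 change -0.16, adjusted p = 0.306), and the alternative partner KIF3C 4.63, 4.22 and 4.18 FPKM against 4.50, 3.94 and 4.21 FPKM (log2 change -0.04, adjusted p = 0.725). Groups overlapped in all 3 kinesin-2 subunits. KIF1C, which carries integrins and works between the Golgi and the endoplasmic reticulum, measured 13.8, 13.3 and 12.5 FPKM against 13.5, 11.7 and 12.4 FPKM (log2 change -0.07, adjusted p = 0.48). KIF13A, a motor of recycling endosomes, measured 6.75, 6.04 and 5.72 FPKM against 6.48, 6.61 and 6.63 FPKM (log2 change 0.08, adjusted p = 0.398). KIF16B, which moves early endosomes, had a log2 change of -0.10 and an adjusted p of 0.32.

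KIFC2 varied among the libraries labelled DAB2IP O/E. It measured 7.56, 7.81 and 7.91 FPKM with the empty vector but 10.8, 7.25 and 9.37 FPKM in these, where replicate 2 lay below every empty vector library. The log2 change was 0.19 (SE 0.119, adjusted p = 0.287), and without that replicate it passed (adjusted p = 0.0347). FOXH1, on the other strand, covers 17.8% of its exon bases. KIF17, a motor of dendrites and cilia, and KIF1A, a neuronal carrier of synaptic vesicle precursors, were at 0.118 to 0.280 and 0.0440 to 0.137 FPKM and were not tested.

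The remaining kinesins regulate microtubule ends, cilia or signalling. KIF2A, a depolymerase of spindle poles and growing neurites, was the highest of them. It measured 23.5, 23.6 and 21.8 FPKM against 19.1, 21.6 and 20.5 FPKM, without overlap, but did not pass (log2 change -0.16, adjusted p = 0.095). IPO11 covers 8.97% of its exon bases on the same strand. Its place outside the mitotic class is a choice, and with KIF2A counted there the mitotic median log2 change was still -0.26. KIF21A, which restrains microtubule growth at the cell cortex, measured 7.52, 6.30 and 5.67 FPKM against 6.09, 5.49 and 5.72 FPKM with overlap (log2 change -0.14, adjusted p = 0.32). KIF24, a centriole kinesin that holds back cilium formation, measured 3.64, 3.57 and 3.45 FPKM against 3.53, 3.56 and 3.23 FPKM (log2 change -0.04, adjusted p = 0.683).

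KIF7, the ciliary regulator of Hedgehog signalling, measured 1.37, 1.21 and 1.41 FPKM against 1.07, 0.886 and 1.09 FPKM. Its groups did not overlap, and it missed the threshold here (log2 change -0.21, adjusted p = 0.096) while just passing in limma-voom on the recovered reads (adjusted p = 0.0498). TICRR covers 11.8% of its exon bases. KIF9, a motor of motile cilia, measured 1.43, 1.76 and 1.82 FPKM against 1.93, 2.1004 and 1.98 FPKM. Its groups did not overlap, with the second higher, but it did not pass (log2 change 0.17, adjusted p = 0.158). KIF9-AS1, on the other strand, covers 14.9% of its exon bases. KIF12 measured 1.89, 1.80 and 2.13 FPKM against 2.76, 1.88 and 2.83 FPKM with overlap (log2 change 0.24, adjusted p = 0.197), and passed without replicate 2 of the group labelled DAB2IP O/E (adjusted p = 0.0344). KIF27 lay between 0.904 and 1.20 FPKM in all libraries. KIF26B, KIF6, KIF21B and KIF26A lay between 0.0647 and 0.407 FPKM, and KIF25 and KIF19 had 0 to 2 reads per library. These low kinesins, with KIF4B, KIF5C, KIF17 and KIF1A, make up the 10 members that were listed but not tested.

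Related kinesins were compared in pairs. The rule for pairs asked for members in different classes or directions, with earlier results known. A ratio without overlap is therefore in part set by that choice. The measure was the log2 ratio of their FPKM within each library, and with 3 libraries against 3 the smallest exact p is 0.1 for each of the 12 pairs, so none can pass. KIF20B relative to KIF20A was at -0.44, -0.43 and -0.55 with the empty vector and at -0.78, -0.61 and -0.60 in the other group. KIF13B relative to KIF13A was at -1.10, -0.95 and -0.94 against -0.72, -0.68 and -0.70. KIF1B relative to KIF1C, a pair outside that rule and added after their values were seen, was at -0.36, -0.36 and -0.35 against -0.22, 0.13 and -0.06. These groups did not overlap in any of the 3 pairs (exact permutation p = 0.1, two-sided, each). The ratio was lower in all libraries labelled DAB2IP O/E in the KIF20 pair and higher in all of them in the KIF13 and KIF1 pairs.

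The mean log2 ratio of KIFC3 to KIFC1 was -1.95 against -1.37, and that of KIFC3 to KIFC2 was -0.82 against -0.60, the second value being that of libraries labelled DAB2IP O/E, with no overlap in either. KIF5B relative to the low KIF5C went from 6.48 to 6.12, and KIF21A relative to the low KIF21B from 4.66 to 5.04, both without overlap. In the pairs KIF18A and KIF18B, KIF3A and KIF3B, KIF3A and KIF3C, KIF2C and KIF2A, and KIF4A and KIF4B, the groups overlapped, with exact two-sided permutation p-values from 0.3 to 0.9 (n = 3 each).

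**Figure D4:**
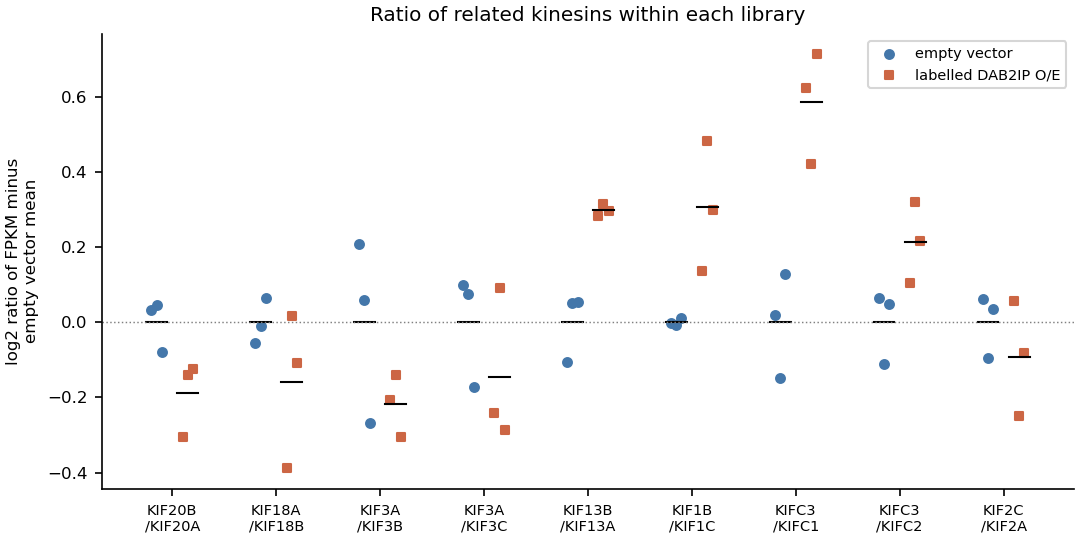
Log2 ratio of FPKM between related kinesins in each library, minus the empty vector mean of the pair, with 1 point per library and both groups side by side. The pairs with the low KIF5C, KIF21B and KIF4B are not drawn. The KIF13B to KIF13A ratio moves up, while the KIF20B to KIF20A ratio moves down. Before the subtraction their means went from -0.999 to -0.701 and from -0.47 to -0.66.

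KIF20B, KIF11 and KIF5B are all on chromosome 10, where the median log2 change over 587 tested genes was -0.06. The median was -0.12 over 51 genes within 5 Mb of KIF20B, -0.12 over 66 genes around KIF11 and -0.08 over 29 genes around KIF5B, where the first 2 windows share genes. The window of KIF18A stood at -0.11 and that of KIF1B at 0.11. The changes of these 5 kinesins were each further from 0 than their window, and the part of the surroundings in them was not tested. Windows of the other kinesins that passed had medians nearer 0, from -0.021 around KIF23 to -0.004 around KIF20A.

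Genes of proteins that work with the mitotic kinesins were taken as a list of 23, chosen with earlier results of these data known. Of these partners, all tested, 12 fell, 0 rose in limma and 11 did not pass, with a median log2 change of -0.23, beside the 9.17% of all genes that fell. In limma-voom 14 were lower and 0 higher, beside 9.64% and 12.8% of all genes tested there. At an unadjusted p under 0.05 the counts were 17 lower and 0 higher. No share over all genes is given at that threshold, so nothing is read from them about the list. RACGAP1, the partner of KIF23 in centralspindlin, measured 48.9, 48.9 and 47.8 FPKM against 33.7, 35.1 and 33.5 FPKM. Its log2 change was -0.50 (SE 0.042, adjusted p = 0.000869). The spindle assembly proteins NUSAP1, HMMR and KNSTRN fell by 0.40, 0.37 and 0.37 on the log2 scale (adjusted p = 0.00192, 0.00426 and 0.00476). These 4 passed in all 6 fits without 1 library. The count of partners that fell went down to 7 without replicate 2 of the group labelled DAB2IP O/E and to 4 without its replicate 3. It was 6 without empty vector replicate 2. Over all genes, 6.65%, 3.04% and 3.72% were called lower in those fits, in the same order. INCENP, MAPRE1 and TACC3 were at log2 changes of -0.0026, 0.01 and -0.03 and did not pass.

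A list of 18 cell cycle transcription factors and cofactors, also chosen with earlier results known, held E2F and NF-Y members that are not confined to late cell cycle. Of these 18, 6 fell, 12 did not pass and 0 rose in limma, with a median log2 change of -0.12. The 6 that fell in limma were 33.3% of the list, beside 9.17% of all genes tested. In limma-voom 5 were lower and 0 higher, beside 9.64% and 12.8% of all genes tested there. At an unadjusted p under 0.05, 8 were lower and 1 was higher, with no share over all genes given at that threshold. FOXM1, an activator of G2/M genes, measured 21.9, 21.4 and 20.1 FPKM against 17.7, 17.7 and 17.4 FPKM (log2 change -0.25, adjusted p = 0.0136). MYBL2, the B-Myb subunit that joins MuvB, measured 92.1, 87.2 and 91.0 FPKM against 78.2, 70.9 and 74.4 FPKM (log2 change -0.27, adjusted p = 0.0141). E2F2 and the NF-Y subunit NFYB had log2 changes of -0.29 and -0.32 (adjusted p = 0.0158 and 0.0198). The count of factors called lower was 0 without replicate 3 of the group labelled DAB2IP O/E, 1 without empty vector replicate 2 and 3 without replicate 1 of the former group, beside 3.04%, 3.72% and 4.36% of all genes.

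The light chains and adaptors of the transport kinesins did not move one way. Of 28 tested, 1 rose, 3 fell and 24 did not pass, with a median log2 change of 0.01. These shares, 3.57% higher and 10.7% lower, were below and near the 9.29% and 9.17% of all genes, so the calls are given for the single genes and not as a result about the list. KIFAP3, the cargo-binding subunit of the KIF3A and KIF3B motor, was the one that rose. It measured 4.12, 4.22 and 4.20 FPKM against 5.69, 5.82 and 5.65 FPKM, a log2 change of 0.38 (SE 0.047, adjusted p = 0.00363), while neither motor subunit passed. TRAK1, the mitochondrial adaptor of KIF5B, fell, with a log2 change of -0.22 (adjusted p = 0.0192). TRAK1 lost the call in 3 of the 6 fits without 1 library, those without replicate 1 or 3 of the group labelled DAB2IP O/E or empty vector replicate 2. The kinesin light chains KLC1, KLC2, KLC3 and KLC4 had log2 changes of -0.08, 0.11, 0.11 and 0.08 and did not pass.

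Dynein and dynactin, the motor that runs the opposite way to most transport kinesins, served as a second set of transport genes. Of 22 tested, 2 rose, 20 did not pass and 0 fell in limma (2 at an unadjusted p under 0.05, 0 in limma-voom), with a median log2 change of -0.0026. The share that rose, 9.09%, was near the 9.29% of all genes, and nothing is read from it about the list. The light chains DYNLT1 and DYNLRB1 rose, by 0.28 and 0.21 on the log2 scale (adjusted p = 0.0152 and 0.0350). DYNLRB1 missed the threshold with equal library medians, with no filter and in 5 of the 6 fits without 1 library, and DYNLT1 missed it without replicate 3 of the group labelled DAB2IP O/E (adjusted p = 0.0594). The heavy chain DYNC1H1 measured 14.7, 14.7 and 16.5 FPKM against 14.02, 15.3 and 15.3 FPKM and did not pass (log2 change -0.04, adjusted p = 0.724).

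**Figure D5:**
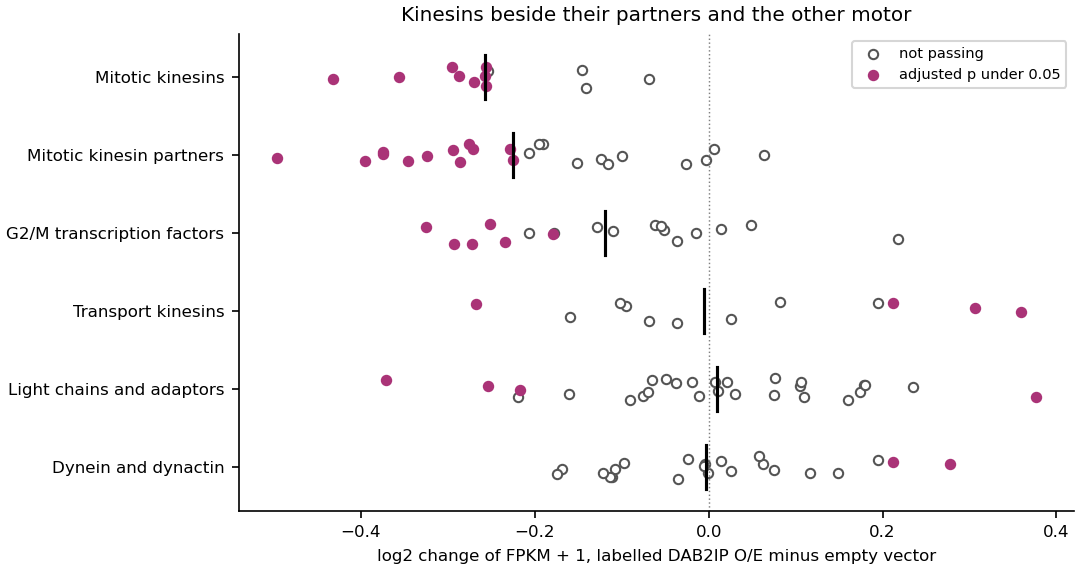
Log2 change on the log2(FPKM + 1) scale of each tested gene of the mitotic and transport kinesins, their partners and adaptors, dynein and dynactin, and cell cycle factors (drawn as G2/M transcription factors), with a bar at the median of each list. The medians of mitotic kinesins (-0.26) and their partners (-0.23) lie below those of transport kinesins (-0.01), adaptors (0.01) and dynein and dynactin (-0.0026).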

How the data were processed

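Poly-A RNA of 6 OVCAR3 libraries was measured, 3 per vector. FPKM of each gene were deposited by library. The authors also deposited their own comparison. Per the file headers its columns are a mean normalised count (used as a signal), the log2 fold change and its error, the test's score, and the p-value before and after adjustment. Trimmomatic 0.32, TopHat2 2.1.1, Bowtie, DESeq2 1.12.4, R 3.3.1 and the builds GRCh38.p5 and hg19 are named per the submitters' processing notes, which give them no roles. How reads were counted, on which annotation and whether by strand is not given in the sources used here. Of the gene identifiers, 25344 had the same version in GENCODE release 29, all with the same coordinates, so positions are in GRCh38. For 8277 genes with a mean normalised count over 500, the deposited fold change lay within 0.0113 of the log2 ratio of empty vector over DAB2IP O/E, and its sign was turned.

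FPKM were tested with limma 3.58.1 (R 4.3.3, mean-variance trend) on log2(FPKM + 1), keeping genes that reached a mean of 1 FPKM, on all 6 libraries, and p-values were adjusted over all 14761 genes by Benjamini-Hochberg. FPKM times the mean normalised count, divided by the mean FPKM of the gene, gave multiples of 1 step in each library, whole within 0.01 for 100% of values, and these recovered reads entered limma-voom as an alternative, for genes with at least 10 reads in 3 libraries. It called 1860 genes lower and 2475 higher of 19303. Counts at an unadjusted p under 0.05 have no share over all genes beside them and are not read as results about a list. Values in every library are given for kinesins past the threshold, for the 3 kinesins of each class with the highest mean and for pairs of relatives; other kinesins were added where a sentence needed them. Of each companion list, up to 4 genes with the lowest adjusted p are named, and a few that did not pass were added after their values were seen. Some genes that this rule would name are not reported here. The members and lists were chosen with earlier results of these data known. Promoters came from RefSeq (GRCh38.p14), using the start nearest the deposited gene start. Pseudocounts, filters, library scalings, limma settings, a replicate block and leaving out each library were the alternatives.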

Additional observations from a re-analysis of the deposited data

How the results depend on the processing

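All mitotic kinesins tested kept a log2 change below 0 under every alternative, and their median ran from -0.21 to -0.29. The count of mitotic kinesins called lower was 3 to 9 when 1 library was left out, and of transport kinesins 0 to 3 were then called higher and 0 to 1 lower. Over all kinesins, 0 to 4 were called higher and 3 to 10 lower, and of the remaining kinesins 0 to 1 were called higher. Partners called lower were 4 to 13, adaptors called higher 1 to 3 and lower 1 to 4, dynein and dynactin genes called higher 0 to 2, and cell cycle factors called lower 0 to 5. All genes called numbered 507 to 1424 higher and 449 to 1307 lower. With no filter, 1 transport kinesin, 1 kinesin in all and 1 dynein gene were called higher. Equal library medians left 1 dynein gene called higher, moved the median of all genes to -0.025 and split all calls into 1686 lower and 1165 higher. With equal upper quartiles 2 adaptors were called higher. In limma-voom on recovered reads, 3 adaptors were called higher, 1 remaining kinesin (KIF7) lower and 2475 genes higher. The median of the transport kinesins, -0.01 as reported, ran from -0.022 to 0.010 without 1 library. It turned to 0.054 with a filter at 5 FPKM, where 8 of them were tested. With 15 tested, it was 0.034 with no filter and 0.12 in limma-voom, where the median of all genes was 0.026. The sign of 3 kinesins near 0 was not fixed. KIF27 gave -0.0071 and KIF3B gave -0.0035 with equal library medians, and without 1 library KIF27 ran from -0.026 to 0.055, KIF3B from -0.0053 to 0.051 and KIF3C from -0.075 to 0.0030. The cause of these shifts was not tested.

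The labels number the replicates within each group and do not say whether libraries with the same number belong together. Deviations of same-numbered libraries from their group means correlated at 0.12, 0.099 and 0.058 over 14761 genes. Each library correlated best with its own number, and unlike numbers gave -0.12 to 0.018. Whether same-numbered libraries were prepared together was not tested. With a replicate block, 8 mitotic kinesins were lower, 1 transport kinesin was lower and 2 higher, and 1178 genes were lower and 1215 higher, with KIF1B missing the threshold (adjusted p = 0.0600). The filter at 1 FPKM kept 10 kinesins out of the limma test, and 8 of these had enough reads for limma-voom, where none passed (lowest adjusted p = 0.0761, KIF1A). Depth limits KIF25 and KIF19, with 0 to 2 reads per library, where 0 reads do not show absence.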
